A study of Rattus norvegicus with 448 samples.

Results

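The livers described here are those at the ends of the range of Fasn, the gene of fatty acid synthase. The study sequenced RNA from snap-frozen liver of outbred rats at 17 weeks of age, as paired-end reads of 37 bases. All its libraries form 1 group, liver, with no genotype, sex, diet, feeding state, hour of death or treatment in the labels, and 430 were matched to a column of the deposited table. Of the 430, 91.2% had at least 15000 genes above 0 and are called eligible. They were ranked by the level of Fasn (ENSRNOG00000045636) in FPKM, a read count divided by gene length and by a scaling factor of the library. The 80 highest form the high Fasn group, the 80 lowest the low Fasn group, and the other 59.2% of eligible libraries belong to neither. The members are thus 160 libraries of 430, and both groups come from the same tissue at the same age. They are not treatment groups: the values of Fasn itself chose them, so its difference between the groups is a description and carries no test. The labels do not say that each library is a separate animal, so p-values measure the spread between libraries.

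Fatty acid synthase is the large enzyme that builds palmitate from acetyl and malonyl units with NADPH as the reducing agent. In liver its gene is known to be raised by insulin and dietary carbohydrate, through the transcription factors SREBP-1c and ChREBP, and lowered by fasting. The enzymes before and after it in the pathway include ATP citrate lyase, acetyl-CoA carboxylase, the elongases and stearoyl-CoA desaturase. The gene table gives only Ensembl identifiers. Of its 16796 identifiers, 0 were found in the reference table of symbols, so the lists of pathway and cell type genes drawn up for this comparison could not be matched. No gene other than Fasn is named here. At most 4 genes are therefore printed by identifier, and the others are described by counts, level, length and the libraries in which they moved. For the same reason liver and its other cell types could not be checked by their markers.

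Fasn was expressed in every eligible library, and its level had a long upper tail. The low group ranged from 1.88 to 5.83 FPKM with a median of 4.29, and the high group from 12.7 to 92.8 FPKM with a median of 15.7. The medians thus lay 3.67-fold apart. The libraries in neither group had a median of 8.38 FPKM. The 4 highest values were 92.8, 48.8, 31.1 and 29 FPKM, so the uppermost library stood well above the next. The ranking has no gap at its edges. The library just inside the high group had 12.68 FPKM and the one just outside 12.67, and those at the low edge had 5.832 and 5.835. The level rested on a median of 932.5 reads on Fasn in the low group and 3869.5 in the high group, as recovered from the values. Among the 38 libraries left out for having few genes above 0, Fasn had a median of 6.41 FPKM, 15 lay at or below the low edge and 1 at or above the high edge.

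**Figure D1:**
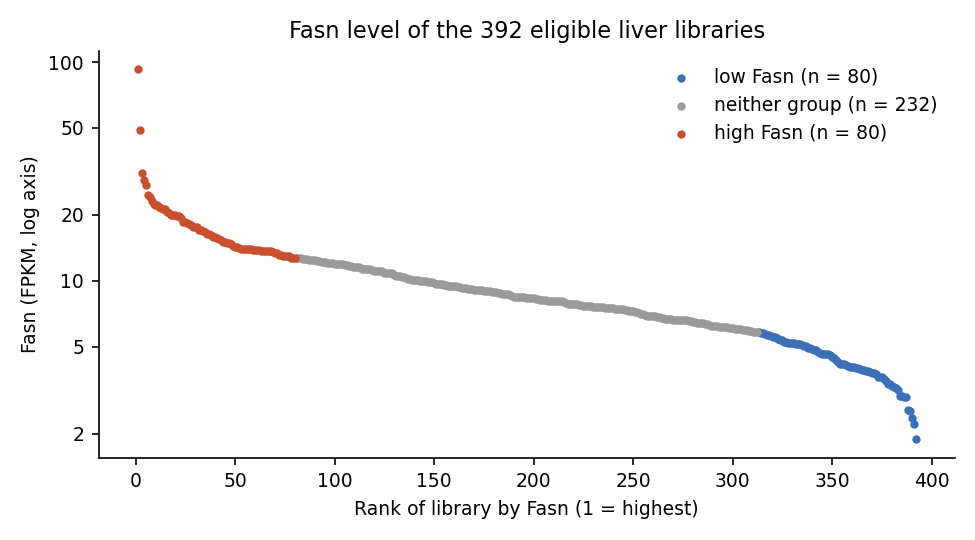
Fasn in FPKM (log axis) of the eligible libraries in rank order, 1 point a library, coloured by group. The 2 uppermost libraries, at 92.8 and 48.8 FPKM, stand apart, and from 31.1 FPKM down the curve passes both group edges without a step.

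The groups differed in measures of the whole library. The first principal component of the 160 libraries, which held 42.1% of their variance, had a mean score of 11.1 ± 27.2 (SD, n = 80) in the high group and -11.1 ± 27.6 in the low group. The adjusted p over 7 measures was 7e-05 (two-sided permutation test with 100000 resamples), from the smallest p that these can give. The high group had 26.2 ± 7.29 M recovered reads against 23.9 ± 5.04 M (SD, adjusted p = 0.0352, permutation test) and a mean of 15890 genes above 0 against 15780 (adjusted p = 0.037, permutation test). The sum of all FPKM was lower in the high group, 547.7 ± 50.4 against 572 ± 51.4 in units of 1000 FPKM (SD, adjusted p = 0.00691, permutation test). No difference passed the test for the share of the 100 highest genes (33.9% against 34%, adjusted p = 0.706) or the number in the library title (adjusted p = 0.158). The permutation tests of all 7 measures took the libraries as exchangeable, though some share the first part of an identifier, as given below.

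Long genes stood higher in the libraries with high Fasn. Each library's length slope, the change of its centred log2 levels per doubling of gene length, had a median of 0.05 in the high group and -0.036 in the low group, and 64 of 80 high libraries exceeded the low median (adjusted p = 7e-05, permutation test, 7 measures). Gene lengths were inferred from the values: Fasn comes out at 9139 bases, longer than 98.9% of the genes tested. Rank by Fasn and the level of long genes thus moved together, and the part of the length slope or the first component in each result was not tested beyond the fits that hold them as covariates.

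Between the groups, genes that reached 1 FPKM in no fewer than 10% of eligible libraries were tested with limma on log2(FPKM + 1), with the number of genes above 0 as covariate and Fasn left out. At an adjusted p under 0.05, 3662 genes (30.1% of those tested) were higher and 2918 (23.9%) lower in libraries with high Fasn. Most differences were small. The median difference (log2) over all genes was 0.0096, with quartiles of -0.095 and 0.124, and the genes called higher had a median of 0.19 and those called lower -0.16. Called differences of at least 0.5 (log2) made up 1.03% of the genes tested upward and 0.484%, or 59 genes, downward. In bulk liver, fewer cells of a type and less RNA per cell cannot be told apart. With the length slope as a further covariate, 1753 genes were higher and 1788 lower, of which 1165 and 1190 were among the first calls. With the first component instead, the counts were 1827 and 2023, and with the first 5 components 936 and 693.

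The called genes differed in length and level. The genes called higher had a median length of 3275 bases, and those called lower 1459, against 2117 over all genes tested. Of 4 length bins of like size, the longest began at 3345 bases, and there 58.6% were called higher and 6.11% lower. In the shortest bin, up to 1299 bases, the shares were 12.5% and 39.6%. Across genes, which are not independent replicates, length and difference had a Spearman correlation of 0.433, which fell to 0.024 with the length slope as covariate. The genes called higher had a median level of 2.68 and those called lower 3.97 (mean log2 level over eligible libraries).

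**Figure D2:**
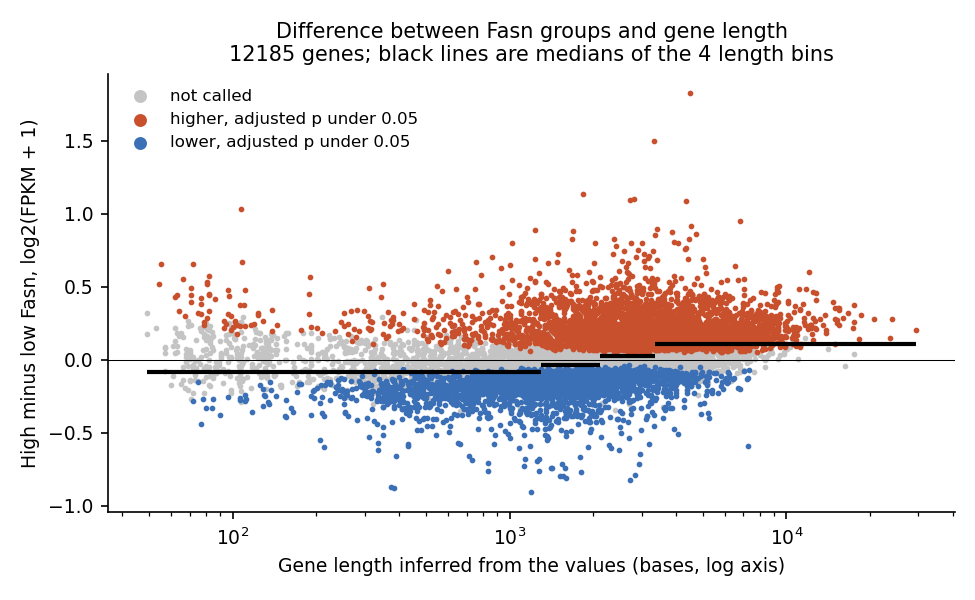
Difference between the groups (high minus low Fasn, log2(FPKM + 1)) against the inferred gene length in bases (log axis), 1 point a gene. The medians of the 4 length bins, drawn as black lines, climb from -0.088 to 0.11.

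No gene among those that differed by at least 0.5 separated the groups fully. For the upward genes, between 50 and 80 of the 80 high libraries lay above the low group's median, with a median of 67. For the 59 downward genes, between 47 and 77 of the high libraries lay below it, also with a median of 67. The number of genes whose ranges did not overlap was 0 in both directions. Overlap was counted only among these upward and downward genes, which are 1.03% and 0.484% of those tested. In the length bins from short to long the upward genes numbered 27, 19, 46 and 33, and the downward genes 31, 15, 11 and 2.

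ENSRNOG00000013552 rose most between the groups. Its level was 4.82 to 362.3 FPKM with a median of 41.7 in the low group, 3.54 to 544 with a median of 75.7 in neither group, and 7.98 to 681.6 with a median of 157.6 in the high group. The groups overlapped widely: 70 of 80 high libraries lay above the low median, but just 13 above the highest low library. The difference was 1.82 (log2, SE 0.22, limma adjusted p = 1.14e-11, n = 80 and 80), and it was 1.36 with the first 5 components as covariates (limma adjusted p = 0.00022). In the libraries of neither group its slope on log2 Fasn was 0.73 (SE 0.31, limma adjusted p = 0.435), which did not pass the test.

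ENSRNOG00000016924 had the lowest p of all genes for a rise with Fasn in the libraries of neither group, where its slope was 0.66 (SE 0.044, limma adjusted p = 5.61e-32). It ranged from 10.6 to 26.1 FPKM with a median of 16.7 in the low group, from 14.4 to 45.8 with a median of 24.1 in neither group, and from 21.5 to 94.7 with a median of 35.8 in the high group. All 80 high libraries lay above the low median and 76 of them above the highest low library. It rose by 1.09 (log2, SE 0.048, limma adjusted p = 1.8e-47), and by 1.02 to 1.06 with the length slope, the first component or the first 5 components as covariates. Its spread within a group was small beside that of ENSRNOG00000013552: the SD was 2.98 FPKM around a mean of 17 in the low group, against 71.9 around 68.

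ENSRNOG00000000768 fell most, and some libraries of every group had little of it. It ranged from 0.255 to 112.4 FPKM with a median of 18 in the low group, from 0 to 81.2 with a median of 12.9 in neither group, and from 0 to 62.3 with a median of 11.9 in the high group. Below 2 FPKM, a bound set after the values were seen, lay 11 libraries of the low group, 50 of neither group and 24 of the high group, or 13.8%, 21.6% and 30%. Among the other libraries the medians were 20.6, 15.4 and 14.5 FPKM. The difference of -0.91 (log2, SE 0.26, limma adjusted p = 0.00238) thus sets together how many libraries lay below that bound and the level of those above it. These were not tested apart, nor was it tested whether the libraries form separate classes. Its call was lost with the length slope as covariate (-0.65, limma adjusted p = 0.0659), with the first component (-0.66, adjusted p = 0.0598), with 40 libraries a side (-0.38, adjusted p = 0.371) and with 120 (-0.26, adjusted p = 0.32). With the first 5 components the call was kept, near the threshold (-0.96, limma adjusted p = 0.0472). In the libraries of neither group the slope had the opposite sign, 0.57 (SE 0.38, limma adjusted p = 0.632).

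ENSRNOG00000003809 had the lowest p among the genes that fell. It was at 52.1 to 167.6 FPKM with a median of 89.3 in the low group, 44.4 to 169.9 with a median of 71.6 in neither group, and 35 to 133.8 with a median of 58.2 in the high group. All but 4 of the 80 high libraries lay at or below the low median, and 18 lay below the lowest low library. It fell by 0.48 (log2, SE 0.046, limma adjusted p = 6.22e-17), and by 0.22 with the first 5 components as covariates (limma adjusted p = 0.000175). In the libraries of neither group its slope of -0.23 (SE 0.063, limma adjusted p = 0.0757) kept the direction and missed the threshold.

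**Figure D3:**
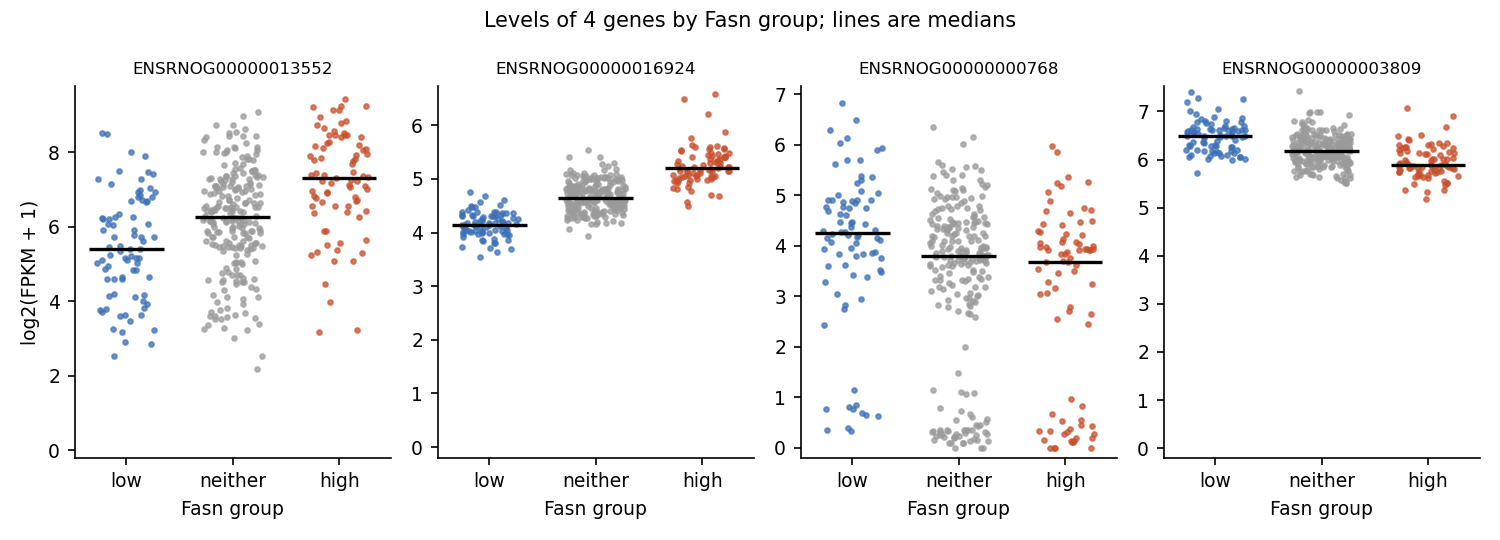
Level (log2(FPKM + 1)) of the 4 printed genes in the low, neither and high group, 1 point a library, with black lines at the medians. ENSRNOG00000016924 climbs from group to group with little overlap of low and high, while ENSRNOG00000000768 has libraries at low levels in every group.

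The libraries of neither group were not fitted in the contrast, though they counted in the gene filter. The slope of each gene on log2 Fasn was tested among them with the same covariate. There 40 genes rose with Fasn (0.328% of those tested) and 5 fell (0.041%). All 45 had also been called between the groups, in the same direction, and they make up 1.09% of the 3662 upward calls and 0.171% of the 2918 downward ones. Most genes called between the groups thus did not pass the test in these libraries, where Fasn spans 5.84 to 12.7 FPKM. At an unadjusted p under 0.05 there were 1142 genes. Of the genes that rose by at least 0.5 between the groups, 94.4% had a positive slope and 28 (22.4%) passed the test. Over all genes tested, 52.7% of slopes were positive. The share of 94.4% counts genes that vary together and are not independent. Of them, 69 form 1 block, described below, with a median r of 0.775 in these libraries and 1 slope called. Of the 59 genes that fell by at least 0.5, 9 (15.3%) had a positive slope and 2 (3.39%) passed the test downward. Across genes, which are not independent replicates, difference and slope had a Pearson correlation of 0.653, from sets of libraries that share no member. The sets may not be independent, since some of their libraries share the first part of an identifier, as given below.

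The 40 rising genes had a median length of 3181 bases and a median level of 4.34 (log2), above the 3 of all genes tested. Their differences between the groups ran from 0.22 to 1.5 with a median of 0.7, and their slopes had a median of 0.4. In the length bins from short to long they numbered 1, 7, 17 and 15. The 5 falling genes had a median difference of -0.26 and a median slope of -0.2. With the first 5 components as covariates 100 genes rose and 23 fell among these libraries, and with the length slope 82 and 16. In these libraries, then, the count of calls went up with such covariates, where between the groups it went down.

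**Figure D4:**
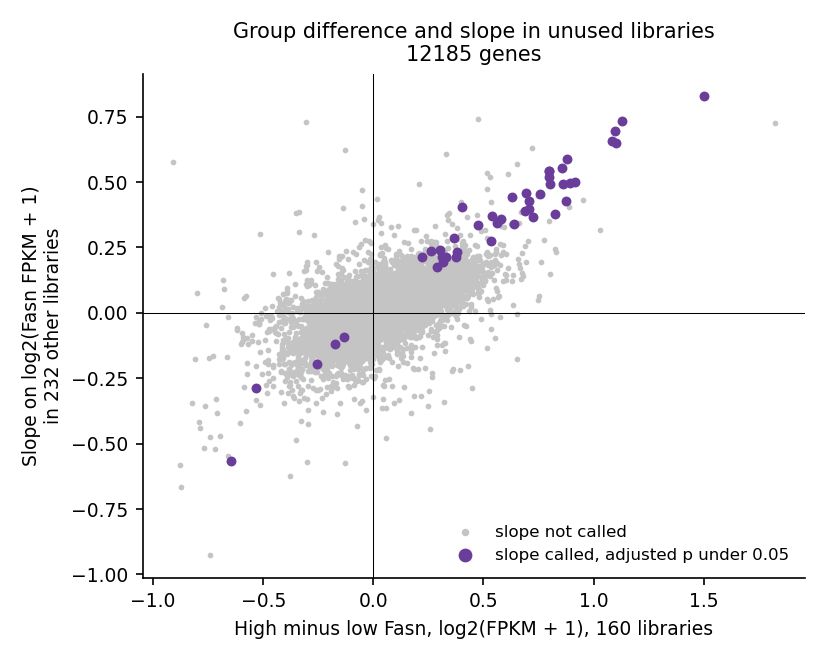
Slope on log2(Fasn FPKM + 1) in the libraries of neither group against the difference between the groups (log2), 1 point a gene, with the 45 genes called by slope in purple. The purple points line up along a diagonal from the lower left to the upper right, most of them at the upper right edge of the cloud of other genes.

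The genes that rose by at least 0.5 fell into several sets that varied together. Grouped by their correlation over the libraries of neither group, after the number of genes above 0 was taken out (average linkage, joined down to a mean r of 0.4), they formed 8 blocks of 2 or more genes and 19 single genes. The first block held 69 genes and the second 18. Pairs of genes within the first block had a median r of 0.775, and within the second 0.675, over libraries that share 1 scaling and differ in depth. The low and high libraries did not enter the grouping, though the contrast between them chose the genes. There the median r of the 2 blocks was 0.714 and 0.526 in the 80 low libraries. It was 0.767 and 0.783 in the 80 high ones, and no r of other genes is given beside these. Genes of the first and the second block tended to oppose each other, with a median r of -0.236 in neither group, -0.141 in the low group and -0.295 in the high group. The blocks were formed after the values were seen and carry no test of their own.

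The first block went with the first principal component of the libraries in neither group. This component and that of the 160 libraries, used as covariate between the groups, were computed apart, each from all genes tested. The block's genes had a median r of 0.701 with the component of neither group. Their difference between the groups had a median of 0.56. With the length slope as covariate that median was 0.14 and 33 of the 69 genes (47.8%) were called higher, against 14.4% of all genes tested in that fit. With the first component of the 160 libraries it was 0.12 and 30 of the 69 were called, against 15% of all genes called higher. With the first 5 components it was 0.026 and 10 (14.5%) were called higher, against 7.68% of all genes. The 69 genes were chosen by their calls between these same groups, so shares above those of all genes carry no support. In the libraries of neither group 1 of the 69 passed the slope test, where 0.328% of all genes tested rose. The mean centred level of the block ranged from -1.87 to 1.11 in the low group, with a median of -0.51, and from -1.72 to 1.43 in the high group, with a median of 0.63. The ranges of the groups thus overlapped widely, but the highest levels occurred only outside the low group.

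The second block of 18 genes did not go with the component of the libraries in neither group and kept its difference. Its genes had a median r of -0.171 with it and a median length of 2839 bases. They rose by 0.53 to 1.5 between the groups, with a median of 0.8. The median was 0.8 with the length slope as covariate, 0.8 with the first component of the 160 libraries and 0.94 with the first 5. All 18 were called higher in each of these fits, whose shares over all genes are the 14.4%, 15% and 7.68% above. These 18 too were chosen by their calls between the same groups, so that count carries no support. In the libraries of neither group 16 of the 18 passed the slope test, against 0.328% of all genes tested that rose there. The block was formed by correlation in these same libraries, so its genes tend to pass or miss that test together. They are not 18 separate results. The block's mean centred level was -1.13 to 0.264 in the low group, with a median of -0.47, and -0.72 to 1.83 in the high group, with a median of 0.36. The upper quartile of the low libraries was -0.25, and the lower quartile of the high ones 0.033.

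ENSRNOG00000016924 belonged to neither of these. It lay in a block of 4 genes with a median length of 4619 bases, which rose by 0.69 to 1.09. All 4 passed the slope test in the libraries of neither group, against 0.328% of all genes tested. These 4 were also grouped by correlation in those libraries, so they are not separate results. ENSRNOG00000016924 itself was chosen by the slope test. ENSRNOG00000013552 was a single gene that joined no block. Of the 28 genes called in both comparisons with a difference of at least 0.5, the second block and the block of 4 held 20. The 59 genes that fell by at least 0.5 formed 9 blocks of 2 or more genes and 20 single genes. The largest block held 19 genes, with a median r of 0.616 in neither group, 0.656 in the low group and 0.583 in the high group. Its median difference was -0.59, and it was -0.44 with the length slope as covariate, where all 19 were called lower against 14.7% of all genes. With the first 5 components the median was -0.095 and 2 of the 19 (10.5%) were called lower, against 5.69% of all genes. The 19 were also chosen by their calls between these groups, so such shares carry no support. None of the 19 passed the slope test in the libraries of neither group. There 0.041% of all genes tested fell, so a count of 0 lies near that share. The next block held 4 genes, all in the shortest length bin, with a median r of 0.89 in neither group, 0.918 in the low group and 0.922 in the high group. These 4 fell by 0.51 to 0.88, and 0 of them passed the slope test in the libraries of neither group, again near the 0.041% of all genes.

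**Figure D5:**
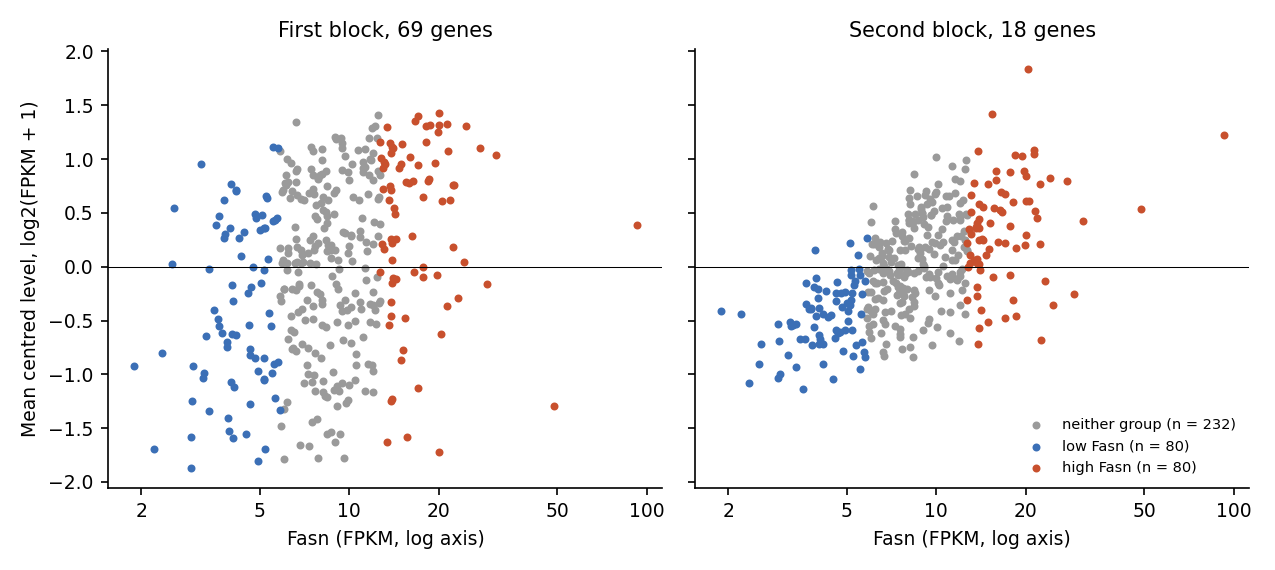
Mean centred level (log2(FPKM + 1)) of the first block of 69 genes and the second block of 18 genes against Fasn in FPKM (log axis), 1 point a library, coloured by group. The first block scatters widely in every group, though no low library reaches the top of the high group's range. The second climbs with Fasn within the grey libraries too.

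The counts of libraries by order and by shared identifier were uneven. These counts were not tested, and the mean title number did not pass its test (permutation test, adjusted p = 0.158). In 4 bins of the eligible libraries by title number, from low to high numbers, the high group had 17, 16, 16 and 31 libraries and the low group 15, 23, 27 and 15. Within the bins, ENSRNOG00000016924 rose by 1.19, 1.1, 0.89 and 1.2 (log2, limma adjusted p = 3.29e-09, 1.16e-12, 1.25e-10 and 1.34e-08) and ENSRNOG00000013552 by 1.72, 1.82, 1.66 and 2.37, of which the third missed the threshold (adjusted p = 0.0613). ENSRNOG00000003809 fell by 0.69, 0.5, 0.4 and 0.29, of which the last missed it (adjusted p = 0.086). ENSRNOG00000000768 had differences of -0.88, -0.53, -1.37 and -0.7, of which none passed (limma adjusted p from 0.284 to 0.493), and it also missed the threshold as a slope over all eligible libraries (adjusted p = 0.121). Within single bins 2594, 927, 48 and 150 genes were called. The first bin held the fewest members and the most calls, and the cause of this spread was not tested.

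Some libraries share the first part of an identifier, which the labels give as a sample ID in common with adipose tissue. The meaning of its first part is not given there. Among the 99 sharing pairs of eligible libraries, 6 were both high, 8 both low and 1 joined a high and a low library. In percent these are 6.06, 8.08 and 1.01, against 4.12, 4.12 and 8.35 of all pairs of eligible libraries. A further 22 joined a high library and 22 a low library to one of neither group, each 22.2% against 24.2% of all pairs. The title numbers of sharing libraries were near each other (median gap 3), so identifier and order cannot be told apart in these counts. With the identifier as a random block in limma, whose consensus correlation was 0.238, 3586 genes were higher and 2846 lower.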

How the data were processed

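The values are FPKM as deposited by the authors. For them, per the submitters' processing notes, the tools included DESeq2, featureCounts, Picard and STAR, whose versions and order are not stated. Any genome build or annotation is not given in the sources used here. FPKM was read from the deposited values, which are whole multiples of a step per library and gene in 100% of cases (tolerance 0.001). The steps gave reads and gene lengths, which are reconstructions (99.6% of lengths whole). Of 448 labelled libraries 18 are not analysed here, and 1 further column matched no label and was not used. Of 392 eligible libraries 232 belong to neither group, the n of every slope and correlation there.

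Genes at 1 FPKM or more in 10% of the eligible libraries were fitted with limma 3.58.1 (R 4.3.3) with a variance trend, on log2(FPKM + 1), which understates changes of low genes. Adjusted p-values are Benjamini-Hochberg values over all genes tested. Permutation tests used scipy 1.17.1. The fits were tested on simulated data in which each gene was drawn independently. These data held no shared component or length slope, so they cannot show how such features affect the calls. The tests covered 12185 genes, of which 125 rose and 59 fell by at least 0.5. Depth was 12.7 to 61.3 M recovered reads per eligible library, and Fasn rested on 322 to 25369 reads in the 160 members.

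The members and lists were chosen with earlier results of these data known. The rule for naming genes asked for a symbol and named none. The 4 printed genes are extremes of rankings, chosen after the values were seen: largest rise, lowest p of a rise in neither group, largest fall and lowest p of a fall. Alternatives varied scaling, pseudocount, filter, covariates, group size, library minimum, ranking and test. The length slope as covariate, leaving out the library with the highest Fasn, bins of title number and the alternatives of the slope in neither group were chosen after seeing the data.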

Additional observations from a re-analysis of the deposited data

How the results depend on the processing

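The 6580 genes called between the groups became 3537 at a filter of 10 FPKM, where 6070 genes were tested, 3541 with the length slope, 3850 with the first component, 1629 with 5 components, 45 in the libraries of neither group, and 2594, 927, 48 and 150 within bins of title number, where the bin with the fewest members had the most calls. In the other 16 alternatives the count stayed within 1.5 times. Genes past 0.5 were 1.51% of those tested, and became 2.49% with a pseudocount of 0.5 and 0.542% with 5, 3.91% without covariate, 0.706% with the first component and also with the length slope, 0.574% with 5 components, 3.29% with 40 libraries a side and 0.616% with 120, 2.75% without a library minimum, 0.912% without the 25% of libraries with the fewest genes above 0, 5.7% with limma-voom on recovered reads, 0.927% by the slope over all eligible libraries, 0.263% by that in neither group (slopes times the groups' mean gap in log2 Fasn), and 5.61%, 0.304% and 0.443% in the first, the third and the fourth bin. Pseudocount, group size and the scale of voom set such sizes by construction, and otherwise the cause was not tested. Calls in neither group, 0.369% of genes, became 0.593% at 10 FPKM, 0.599% with a spline of title number, 0.739% with the first component, 1.01% with 5 and 0.804% with the length slope. ENSRNOG00000000768 reversed in neither group (1.03 on the scale of the group difference). ENSRNOG00000016924 kept direction and call in all 25 alternatives. These include the slope in neither group, by which it was chosen, and most of the others refit the same or overlapping libraries. Without the library with the highest Fasn 6610 genes were called. No paired analysis was possible because the labels number no replicates across the groups and just 1 pair sharing an identifier joined a high and a low library.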
